A study of Saccharomyces cerevisiae with 2 samples.

Results

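The pentose phosphate pathway of budding yeast was described through 10 genes of the 6142 named genes in the deposited table. They were chosen by name from the known pathway, as enzymes of its oxidative arm (ZWF1, SOL3, SOL4, GND1 and GND2) and of its non-oxidative arm (RKI1, TKL1, TKL2, TAL1 and NQM1). RPE1, the epimerase gene of the non-oxidative arm, was not in the list. All 10 were found, and each averaged 50 or more normalized reads over the libraries, the minimum used for counts below. RNA came from 2 bulk cultures of BY4741, a haploid strain of mating type a that is auxotrophic for histidine, leucine, methionine and uracil, both grown in glucose-based rich medium to mid-log phase. The PQ group was 1 culture given 2.5 mM paraquat over 8 h. The WT group was 1 culture of the same strain without treatment. Reads on named genes came to 165264107 in PQ and 164909400 in WT. The labels time the treated culture only, and an effect of growth time and one of paraquat cannot be told apart. The cultures were measured in bulk, so a difference in some cells and a smaller one in all cells cannot be told apart either. The mating type markers went with the label, since the 6 a-type genes summed to 227156 normalized reads in the PQ library and 315011 in the WT library, against 2678 in PQ and 1839.7 in WT for 3 alpha-type genes. With a single library in each group, no difference below has a replicate check or a test, and every interval is a 95% counting interval of these libraries.

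The oxidative arm turns glucose 6-phosphate into ribulose 5-phosphate and reduces NADP to NADPH at its first and last steps. The non-oxidative arm then rearranges pentose phosphates into ribose 5-phosphate for nucleotides, erythrose 4-phosphate for aromatic amino acids, or back into intermediates of glycolysis. NADPH feeds the thioredoxin and glutathione systems, and yeast cells without Zwf1 are known to be sensitive to oxidants. Paraquat takes electrons from cellular reductants and passes them to oxygen, which forms superoxide. Several steps have a pair of paralogs, of which 1 is the main enzyme of growing cells and the second is less abundant in glucose.

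After paraquat, NQM1, the second transaldolase gene, was the 1 member that was 2-fold or more higher, and 0 members were 2-fold or more lower. Over the 5973 genes that met the same minimum, 3.08% passed 2-fold upwards and 1.52% downwards, so a count of 1 in 10 says little about the pathway as a whole. At 1.5-fold on the deposited scaling, NQM1 and TKL2 were higher and 0 members lower, where 7.75% of all genes were higher and 5.88% lower. ZWF1 and GND1, which encode both NADPH-forming enzymes, were 1.43-fold and 1.41-fold higher. RKI1 and TKL1 were 1.32-fold and 1.18-fold lower on the deposited scaling. Of the members 7 lay above 0 on the log2 scale, where 49.7% of all genes did, and the median log2 ratio of PQ over WT was 0.23, where the median of all genes was 0.00. Scaling to total reads on genes in place of the deposited scaling adds 0.26 to every log2 ratio and to the median of all genes. On that scaling 9 members lay above 0, where 4693 of the 5973 genes did.

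**Figure D1:**
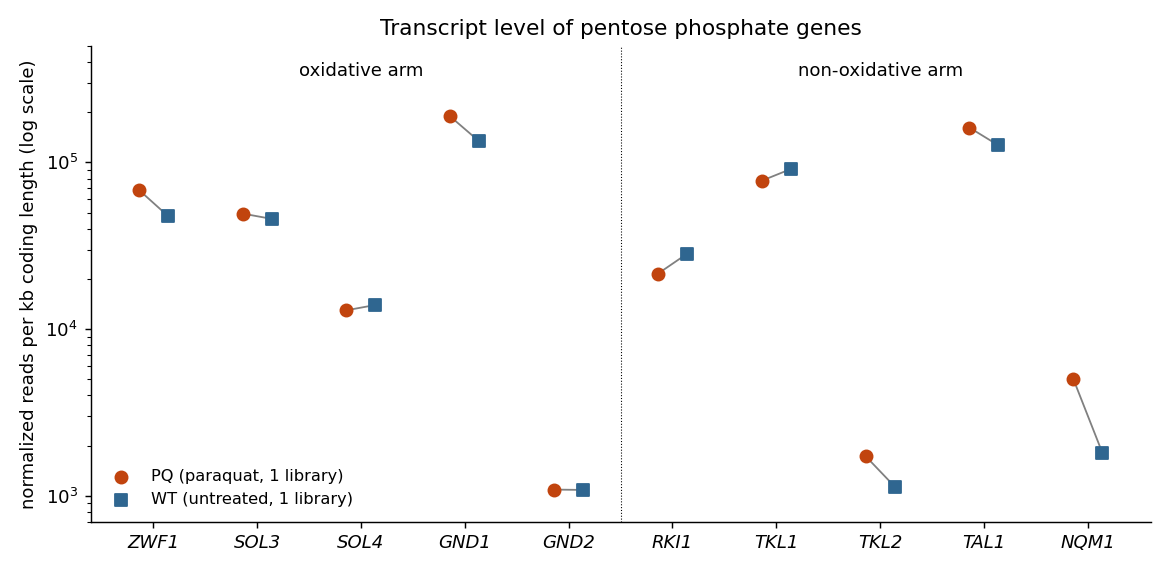
Normalized reads per kb of coding length (log axis) for each pentose phosphate gene, with the PQ library as circles and the WT library as squares, 1 library each. The order of the genes was the same in both libraries, GND1 highest and GND2 lowest, and NQM1 had the widest gap, 5036 in PQ and 1815 in WT.

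In normalized reads per kb of coding length, which allows genes to be compared with each other, GND1 had the highest level, 188745 in the PQ library and 133580.3 in the WT library. TAL1, TKL1, ZWF1 and SOL3 came next, then RKI1 and SOL4. The scarce copies closed the order with 5036 in PQ and 1815 in WT for NQM1, 1730.4 in PQ and 1137 in WT for TKL2, and 1090.4 in PQ and 1085 in WT for GND2. The order was the same in both libraries. Neighbours in it were close in the WT library, where the per-kb level of GND1 was 1.06 times that of TAL1 (1.05 to 1.06), ZWF1 was 1.04 times SOL3 (1.03 to 1.06) and TKL2 was 1.05 times GND2 (0.981 to 1.12). The last pair was not separated by counting error, and the spread between cultures is unknown for all of them. In the PQ library the same ratios were 1.17 for GND1 over TAL1 (1.16 to 1.17), 1.39 for ZWF1 over SOL3 (1.37 to 1.41) and 1.59 for TKL2 over GND2 (1.5 to 1.68).

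The start regions of ZWF1, NQM1, TAL1 and TKL2 are shown. ZWF1 is the entry to the pathway, NQM1 is the member beyond 2-fold and TAL1 its paralog. TKL2 is the other member beyond 1.5-fold on the deposited scaling. Each sequence runs from 250 bases before to 50 bases after the first base of the start codon, taken from the RefSeq R64 genome by gene name. The capitals mark CCCCT, the core of the stress response element bound by Msn2 and Msn4 (AGGGG where it lies on the other strand), and TTACTAA, a site known for the peroxide-sensing factor Yap1.
ZWF1, R64 chrXIV:197894-198193, minus strand: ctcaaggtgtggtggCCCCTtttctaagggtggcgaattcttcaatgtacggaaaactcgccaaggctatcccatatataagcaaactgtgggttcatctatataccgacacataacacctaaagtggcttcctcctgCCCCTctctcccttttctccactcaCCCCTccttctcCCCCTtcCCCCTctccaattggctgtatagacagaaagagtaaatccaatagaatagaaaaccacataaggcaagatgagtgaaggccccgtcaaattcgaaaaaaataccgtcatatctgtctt
NQM1, R64 chrVII:581387-581686, minus strand: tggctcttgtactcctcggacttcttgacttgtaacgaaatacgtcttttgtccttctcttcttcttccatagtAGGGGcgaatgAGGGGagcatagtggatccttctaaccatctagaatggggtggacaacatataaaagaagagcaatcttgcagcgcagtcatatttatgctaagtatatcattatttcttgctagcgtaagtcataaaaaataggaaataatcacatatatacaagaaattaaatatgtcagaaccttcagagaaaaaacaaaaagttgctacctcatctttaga
TAL1, R64 chrXII:837308-837607, minus strand: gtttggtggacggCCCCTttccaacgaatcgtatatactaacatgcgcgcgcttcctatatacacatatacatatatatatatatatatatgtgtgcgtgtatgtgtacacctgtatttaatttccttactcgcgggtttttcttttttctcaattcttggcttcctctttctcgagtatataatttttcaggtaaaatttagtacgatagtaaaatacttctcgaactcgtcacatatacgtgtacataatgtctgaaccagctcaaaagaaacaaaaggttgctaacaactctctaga
TKL2, R64 chrII:476388-476687, minus strand: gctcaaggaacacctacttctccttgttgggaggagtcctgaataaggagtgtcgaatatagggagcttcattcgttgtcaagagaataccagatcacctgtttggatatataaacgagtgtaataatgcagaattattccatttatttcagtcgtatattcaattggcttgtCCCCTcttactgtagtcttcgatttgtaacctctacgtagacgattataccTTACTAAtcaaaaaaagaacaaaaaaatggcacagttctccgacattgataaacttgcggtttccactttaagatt

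CCCCT was found on either strand in the windows of 8 of the 10 members, where 21.6% of 6001 such windows of protein-coding genes hold it. ZWF1 held 5 matches, of which 4 lay between 112 and 68 bases before the start codon. NQM1 held 2 matches on the other strand, 176 and 165 bases before the start codon. SOL3, SOL4, GND2, TKL1, TKL2 and TAL1 held 1 each, and GND1 and RKI1 held 0. TTACTAA was in the window of 1 member, TKL2, and in 7.45% of all windows. The site of Stb5, a zinc cluster factor known to activate genes of this pathway, was searched as CGGNGNTA or CGGNCNTA on both strands. It was in 2 members, with 2 matches in SOL3 and 1 in GND2, and in 9.85% of all windows. None of the matches overlapped a match of another motif. Across the table, the 1264 measured genes with CCCCT in their window had a median log2 ratio of -0.04 and 3.24% of them passed 2-fold upwards, while the 4520 genes without it had a median of 0.00 and 2.48% passed. A match of letters in these windows is no evidence of binding, and its absence says nothing of a site elsewhere.

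**Figure D2:**
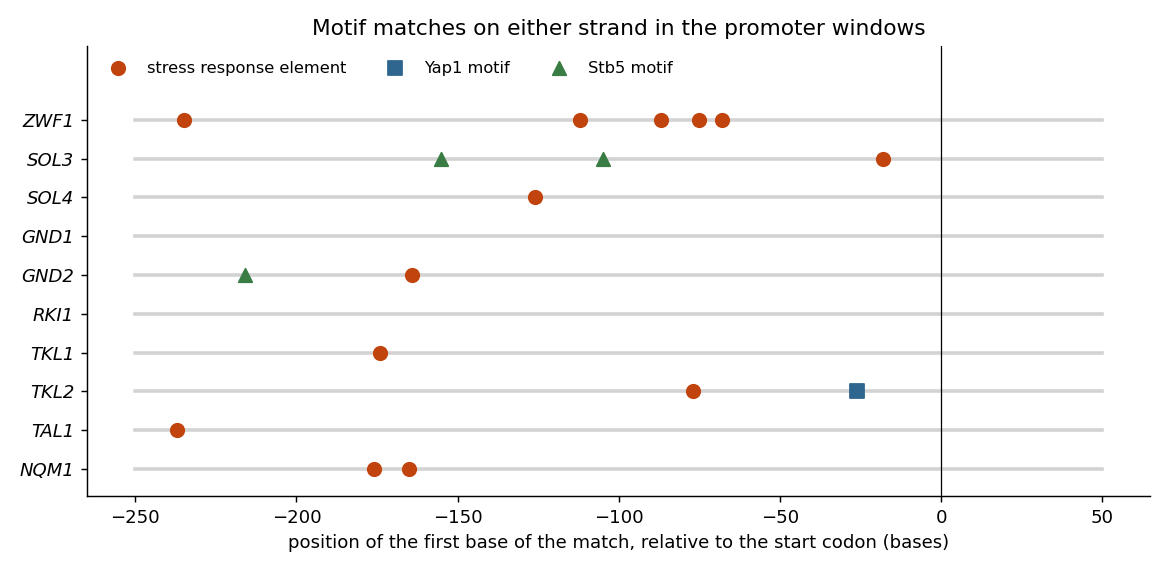
Positions of motif matches on either strand in the start region of each member, in bases relative to the start codon (grey lines, the window searched). ZWF1 carries 5 matches of the stress response element, while GND1 and RKI1 carry 0 of any motif searched.

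ZWF1 encodes glucose-6-phosphate dehydrogenase, which commits glucose 6-phosphate to the pathway and forms the first NADPH. It held 104102 normalized reads in the PQ library and 72553 in the WT library, a ratio of 1.43 (1.42 to 1.45). This placed it at rank 550 of 5973 genes by log2 ratio, with 9.19% of genes above it. It belonged to the most abundant of 10 classes of mean expression, whose median log2 ratio was -0.31, so that ZWF1 stood 0.83 above its class on the log2 scale and 0.52 above 0.

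GND1 encodes the main 6-phosphogluconate dehydrogenase, which releases the second NADPH and carbon dioxide. It held 277455 normalized reads in the PQ library and 196363 in the WT library, a ratio of 1.41 (1.40 to 1.42), and stood 0.80 above the median of its expression class. The ratios of GND1 and ZWF1 differed by little, with GND1 over ZWF1 at 0.985 of its untreated value (0.974 to 0.996). GND2, the scarce second copy, held 1613 normalized reads in PQ and 1604 in WT, a ratio of 1.01 (0.937 to 1.08) that counting error did not separate from 1. GND2 lay at 0.01 on the log2 scale and turned to -0.17 against its own expression class.

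SOL3 encodes the main 6-phosphogluconolactonase, the step between both dehydrogenases. It held 37014 normalized reads in PQ and 34402 in WT, a ratio of 1.08 (1.06 to 1.09). SOL4, its paralog, held 9965 in PQ and 10724 in WT and was 1.08-fold lower (1.05 to 1.11), with a log2 ratio of -0.11 that turned to 0.15 when scaled to total gene reads. Both genes lay within 1.5-fold on the deposited scaling, scaled to total gene reads and against their expression classes. The other genes of the Sol family, SOL1 and SOL2, are no members of the pathway and lay lower, SOL2 with 14496 normalized reads in PQ and 20565 in WT (log2 ratio -0.50) and SOL1 with 5054 in PQ and 7143 in WT (also -0.50).

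RKI1 encodes the isomerase that makes ribose 5-phosphate. It held 16712 normalized reads in PQ and 21990.4 in WT and was 1.32-fold lower (1.29 to 1.34), the lowest ratio of the members, with a log2 ratio of -0.40, or -0.14 scaled to total gene reads. RPE1, the epimerase at the same fork, was not in the member list and held 32628 in PQ and 35459 in WT. Its log2 ratio was -0.12 and turned to 0.14 when scaled to total gene reads.

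TKL1, the main transketolase, moves 2-carbon units between sugar phosphates. It held 158700.0 normalized reads in PQ and 186534 in WT and was 1.18-fold lower (1.17 to 1.18), a log2 ratio of -0.23 that turned to 0.03 scaled to total gene reads and to 0.07 against its expression class. TKL2, the scarce transketolase, held 3540.4 in PQ and 2327 in WT and was 1.52-fold higher (1.44 to 1.6). It had the second highest ratio of the members on the deposited scaling, with 7.30% of genes above it, but stood 0.42 above its own expression class, less than ZWF1, GND1, TAL1 and NQM1 did.

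TAL1, the main transaldolase, moves 3-carbon units from sedoheptulose 7-phosphate. It held 163141 normalized reads in PQ and 127587 in WT, a ratio of 1.28 (1.27 to 1.29), and stood 0.66 above its expression class on the log2 scale. NQM1, its paralog and known for induction at the diauxic shift, held 5046 in PQ and 1819 in WT, a ratio of 2.77 (2.63 to 2.93). NQM1 ranked 68 of 5973 genes, with 1.12% of genes above it, and its log2 ratio ran from 1.41 against its expression class to 1.73 scaled to total gene reads, around 1.47 as deposited. In the authors' deposited table, NQM1 had an unadjusted p of 0.0338 and an adjusted p of 0.999. The other 9 members had unadjusted p-values from 0.191 to 0.984 in the authors' deposited table, and 0 members and 0 of all genes had an adjusted p under 0.05. Of all genes 2.12% had an unadjusted p under 0.05 in the authors' deposited table, which compared 1 library with 1.

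**Figure D3:**
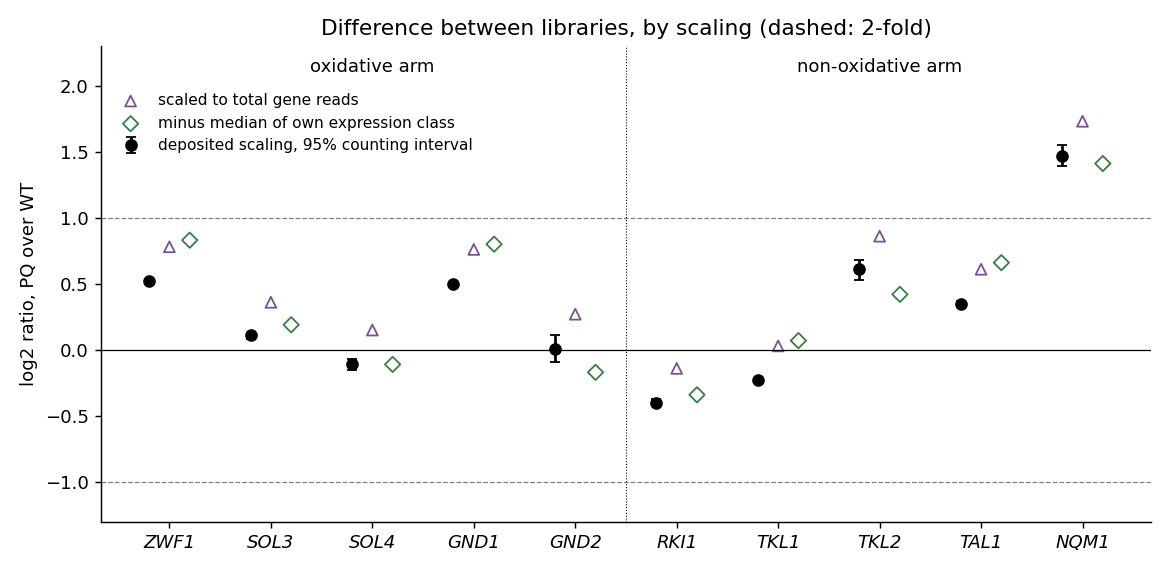
Log2 ratio of PQ over WT for each member on the deposited scaling (black, with 95% counting intervals), scaled to total gene reads (triangles) and minus the median of the gene's own expression class (diamonds). NQM1 alone lies beyond 2-fold, on all 3 scalings, while SOL4, GND2 and TKL1 change sign between scalings.

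The pairs parted in opposite ways in the arms, as read within each library, where the scaling of the libraries has no effect. In the non-oxidative arm the scarce copy took a larger part of its pair in the PQ library. NQM1 took 3.0% of the reads of the TAL1 and NQM1 pair in PQ (2.92 to 3.08) and 1.41% in WT (1.34 to 1.47), a shift of 2.17 times (2.05 to 2.29). TKL2 took 2.18% of the transketolase reads in PQ (2.11 to 2.25) and 1.23% in WT (1.18 to 1.29), a shift of 1.79 times (1.70 to 1.89). In the oxidative arm the second copy took a smaller part. GND2 took 0.578% of its pair in PQ (0.551 to 0.605) and 0.810% in WT (0.770 to 0.853), a shift of 0.711 times (0.664 to 0.763). SOL4 took 21.2% in PQ (20.9 to 21.6) and 23.8% in WT (23.4 to 24.2), a shift of 0.864 times (0.837 to 0.891). Scarce genes ran higher than abundant ones across the table, with a median log2 ratio of 0.28 in the lowest expression class and -0.31 in the highest. Read against the median of each gene's own class, the shift of NQM1 over TAL1 was 0.75 on the log2 scale (1.12 without this) and that of TKL2 over TKL1 was 0.35 (0.84 without this), while GND2 over GND1 was -0.98 (-0.49 without this).

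**Figure D4:**
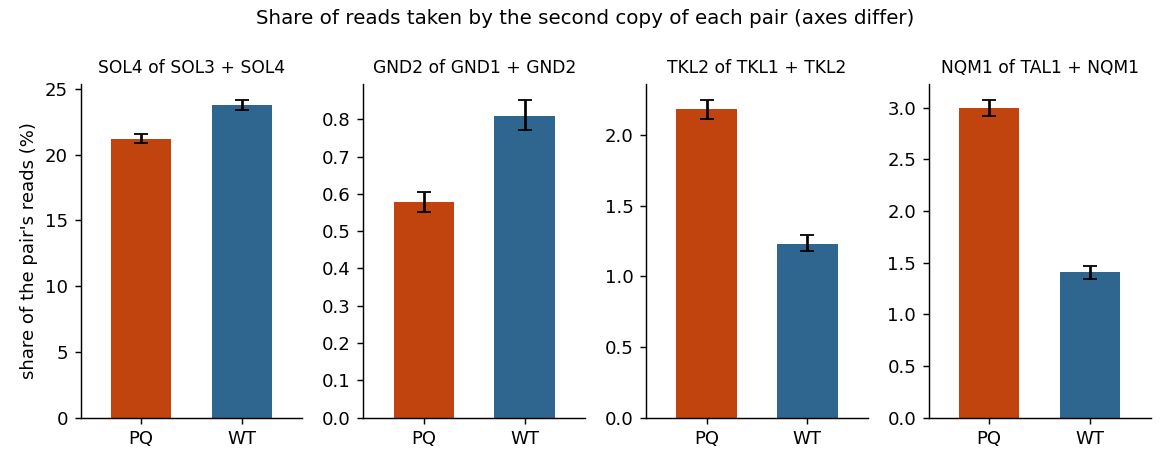
Share of each pair's reads taken by its second copy, in percent, in the PQ and the WT library, with exact binomial 95% intervals. The vertical axes differ and each starts at 0. The share was larger in PQ for NQM1 and TKL2 and smaller in PQ for GND2 and SOL4.

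Summed over a pair, the ratio followed that of the main copy. The transaldolase pair held 168187 normalized reads in PQ and 129406 in WT, a ratio of 1.30 (1.29 to 1.31), close to that of TAL1, since the per-kb level of TAL1 was still 32.1 times that of NQM1 in PQ and 69.7 times in WT. The 6-phosphogluconate dehydrogenase pair was at 1.41 (1.40 to 1.42), the lactonase pair at 1.04 (1.03 to 1.05) and the transketolase pair at 0.859 (0.853 to 0.865). Transaldolase and transketolase, which act in turn on the same sugars, parted, and TAL1 over TKL1 was 1.5 times its untreated value (1.49 to 1.52).

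No pair shared more than 20 bases in a row without a mismatch, which bears on how reads could be split between paralogs. In coding sequence GND2 and GND1 were 78.6% identical with a longest shared run of 20 bases, TKL2 and TKL1 69.1% with 17, NQM1 and TAL1 67.8% with 17, and SOL4 and SOL3 56.4% with 8. Their proteins were 87.8%, 71.4%, 68.1% and 47.7% identical in the same order. By the R64 annotation 0 of the 10 members overlap another gene on either strand.

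The arms as listed, without RPE1 in the non-oxidative arm, differed by how the pairs were counted. Over all 5 genes each, the median log2 ratio was 0.11 in the oxidative and 0.35 in the non-oxidative arm, a difference of -0.25 (-0.27 to -0.23). RPE1 had a log2 ratio of -0.12, so counting it would lower the non-oxidative median and make the difference smaller. The median genes were SOL3 and TAL1, and the interval covers the counting of their reads, not the spread among genes. Log2 ratios ran from -0.11 to 0.52 in the oxidative arm and from -0.40 to 1.47 in the non-oxidative arm. With the main gene of each pair only, the sign turned and the difference was 0.73. Summed reads gave the same side, since the oxidative arm held 430148 normalized reads in PQ and 315646 in WT, a ratio of 1.36 (1.36 to 1.37), and the non-oxidative arm 347139 in PQ and 340257 in WT, a ratio of 1.02 (1.02 to 1.03). As a part of all reads on genes, the oxidative arm took 0.285% of the PQ and 0.175% of the WT library, and the non-oxidative arm took 0.230% of the PQ and 0.188% of the WT library.

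Around the pathway, 15 genes share or use its intermediates, with RPE1 counted among them. On the deposited scaling 2 of them lay above 0 and 13 below, with a median log2 ratio of -0.12, while scaled to total gene reads 12 lay above 0 and the median was 0.14. Scaled in that way, 4693 of all 5973 genes lay above 0 and their median was 0.26. None of the 15 passed 2-fold on the deposited scaling. PGI1, the isomerase that takes glucose 6-phosphate into glycolysis, was the lowest of them, with 306005 normalized reads in PQ and 466122 in WT, 1.52-fold lower. Its log2 ratio was -0.61, or -0.35 scaled to total gene reads and -0.30 against its expression class. ZWF1 and PGI1 compete for glucose 6-phosphate, and ZWF1 over PGI1 was 2.19 times its untreated value (2.16 to 2.21), with per-kb levels of ZWF1 at 0.373 of PGI1 in PQ and 0.171 in WT. Of 6 genes that form or convert hexose phosphates, 1 lay above 0 and the median was -0.32, or 2 above 0 and a median of -0.07 scaled to total gene reads, with the glucokinase paralog EMI2 lowest at -0.54.

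Other NADPH sources lay on both sides, with 4 of 9 genes above 0, a median of -0.11 and 0 beyond 2-fold on the deposited scaling. Scaled to total gene reads, 6 of the 9 lay above 0, the median was 0.15 and IDP2 passed 2-fold with a log2 ratio of 1.15. With the same scaling 4693 of all 5973 genes lay above 0 and their median was 0.26. ALD6, the cytosolic acetaldehyde dehydrogenase, held 91570.0 normalized reads in PQ and 178406 in WT and was 1.95-fold lower, the lowest of the 9. IDP2, the cytosolic NADP-dependent isocitrate dehydrogenase, was 1.86-fold higher with 3336 in PQ and 1796 in WT, and the mitochondrial malic enzyme gene MAE1 was 1.92-fold lower. Against the median of its own expression class, ALD6 stood at -0.66, MAE1 at -0.63 and IDP2 at 0.71 on the log2 scale. ZWF1 over ALD6 was 2.80 times its untreated value (2.76 to 2.83), with per-kb levels of ZWF1 at 1.13 times those of ALD6 in PQ and 0.403 times in WT. Of 3 thiol reductases that use NADPH, TRR1, the cytosolic thioredoxin reductase, was 2.06-fold higher, with 223612 normalized reads in PQ and 108509.8 in WT, while the glutathione reductase gene GLR1 had a log2 ratio of -0.06, or 0.20 scaled to total gene reads.

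**Figure D5:**
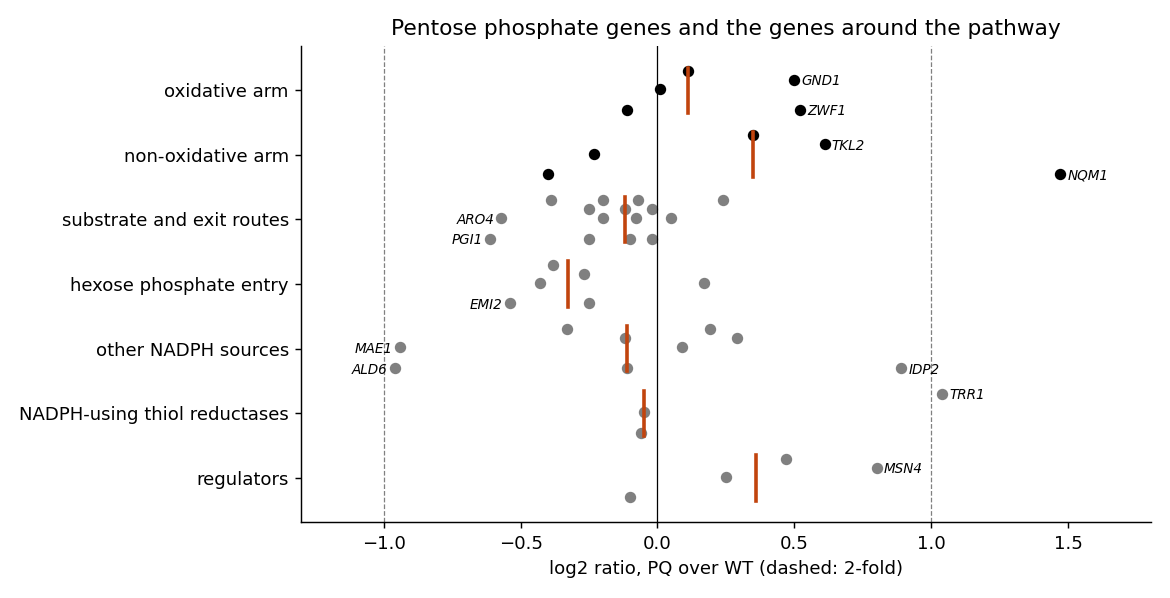
Log2 ratio of PQ over WT on the deposited scaling for the members of both arms (black) and for genes around the pathway (grey), 1 point per gene, with the median of each row as a bar. Genes at or beyond 0.5 on either side are named. NQM1 and TRR1 are the 2 points beyond 2-fold, both higher in PQ.

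Of the 4 regulators listed, STB5 held 5575 normalized reads in PQ and 5962 in WT, a log2 ratio of -0.10 that turned to 0.16 scaled to total gene reads. YAP1 was 1.39-fold higher and MSN4, the scarcer of the stress factors Msn2 and Msn4, was 1.74-fold higher, with 11594 normalized reads in PQ and 6669 in WT. These are transcript levels and say nothing of the activity of the proteins. Of 10 general stress genes 3 lay above 0 on the deposited scaling, HSP12 (a heat shock protein) at 3.14 and CTT1 (cytosolic catalase) at -1.45 being the 2 beyond 2-fold. Scaled to total gene reads, the stress gene DDR2 (1.08) and the regulator MSN4 (1.06) also passed 2-fold. The median of that list was -0.15, and its log2 ratios ran from -1.45 to 3.14. Whether NQM1 follows these genes was not tested. Scaled to total gene reads the list's median was 0.11, where the median of all genes was 0.26. In 10 other pairs of metabolic paralogs the first-named copy took a larger part in 6. The first-named copy was the scarcer one per kb in 8 of these pairs and the more abundant one in 2, PGM2 over PGM1 and GPD1 over GPD2. With each pair turned as in the pathway, an orientation chosen after seeing the data, the scarcer copy took a larger part in 8 of 10, of which PGM1 over PGM2, at 1.02 times (0.994 to 1.04), was not separated from 1 by counting error. Either way shifts ran from 0.811 for GSY1 over GSY2 to 1.86 for ACS1 over ACS2. The shifts of TKL2 over TKL1 and SOL4 over SOL3 lay within that range, that of NQM1 over TAL1, at 2.17, above it, and that of GND2 over GND1, at 0.711, below it. In these pairs 0 genes passed 2-fold, ENO2 (enolase) being lowest at -0.97.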

How the data were processed

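RNA of 2 yeast cultures was sequenced, 1 library per group, and groups follow the treatment in the labels. The authors deposited 1 table, whose normalized signal for each gene is, from the values, its read count over a library size factor: every value is a whole multiple, within 0.01 read, of 0.913 (PQ) or 1.10 (WT) normalized units. The log2 column is the authors' ratio of PQ over WT, and recomputed log2 ratios differed from it by at most 8.38e-05. The p-value and adjusted p-value columns are the authors' own, per the file headers. DESeq2, featureCounts, Subread 1.5.2, STAR 2.5.2b and Trimmomatic 0.36 are listed, per the submitters' processing notes, with no role or order. The sources used here give neither the build nor the strandedness. The 1 row without a name held 0.00675% of PQ and 0.00449% of WT reads and was left out.

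Depth was 165264107 reads on named genes in PQ and 164909400 in WT. Intervals on folds and shares are exact binomial (Clopper-Pearson) and those on shifts within pairs and on ratios of levels are Woolf intervals of the reads. They cover counting error only, since PCR copies are not independent molecules. Library-to-library spread is unknown, and no test was run. Genes averaging 50 or more normalized reads and differing by 2-fold or more were counted, among members and among all genes. Lengths, identities and sequences come from RefSeq R64, and R64 coordinates are those of that assembly, not of the table, which has none. Protein identity is over a global alignment (BLOSUM62).

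Members and lists were chosen with earlier results of these data known. The text names all members, in each neighbour list the genes beyond 2-fold or else the largest ratio, and RPE1, STB5 and YAP1. SOL1, IDP2, MAE1, GLR1, DDR2 and the GSY, ACS, PGM and GPD pairs were named after their values were seen. The ratios of ZWF1 over PGI1, ZWF1 over ALD6, TAL1 over TKL1 and GND1 over ZWF1 were not among the planned comparisons. Of the ratios computed with them, RKI1 over RPE1 was 0.826 times its untreated value (0.805 to 0.847) and GND1 over RKI1 1.86 times (1.82 to 1.90). LEU2, URA3, MET17 and PGM3 were listed but had no values under these names. Of the strain's auxotrophy genes HIS3 held 12482 normalized reads in PQ and 17852 in WT. Whether these reads come from an intact gene was not tested. In the mating type lists BAR1 and AGA2 were 2.17-fold and 2.54-fold lower and STE3 1.63-fold higher. Alternatives were total-read and median scaling, expression classes, pseudocounts of 1 and 10, a 1.5-fold threshold, no minimum mean, and other summaries of the arms. Python 3.11.15, numpy 2.4.6, pandas 2.3.3, scipy 1.17.1, Biopython 1.88 and matplotlib 3.10.9 were used, and the interval and fold computation was tested on simulated counts.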

Additional observations from a re-analysis of the deposited data

How the results depend on the processing

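No paired analysis was possible because each group holds 1 library. With a 1.5-fold threshold on the deposited scaling the count of members higher in PQ was 2 in place of 1, TKL2 joining NQM1, where 7.75% of all genes pass, and 0 were lower. Scaled to total gene reads, ZWF1 (0.78), GND1 (0.76) and TAL1 (0.61) also passed 1.5-fold. Against expression classes ZWF1 (0.83), GND1 (0.80) and TAL1 (0.66) passed with NQM1, while TKL2 (0.42) did not. The share of all genes passing 1.5-fold in these ways was not counted. At 2-fold, total-read and median scaling, expression classes, both pseudocounts and no minimum mean left the counts at 1 higher and 0 lower. The difference of the oxidative and non-oxidative median log2 ratio, -0.25, was -0.16 with means. It turned to 0.73 with the main gene of each pair only and to 0.71 with summed reads of each pair. The non-oxidative arm lacks RPE1 in all of these. With main genes only, the second copies of both arms drop out, and the median genes were GND1 at 0.50 and TKL1 at -0.23. In summed reads the main copy holds most of each pair. Against expression classes the shifts within pairs were -0.29 for SOL4 over SOL3, -0.98 for GND2 over GND1, 0.35 for TKL2 over TKL1 and 0.75 for NQM1 over TAL1, and pseudocounts moved none of them beyond its counting interval. Scaled to total gene reads SOL4 turned to 0.15 and TKL1 to 0.03, and against expression classes GND2 turned to -0.17 and TKL1 to 0.07. Counting error is small at this depth, GND2 being the 1 member whose interval reaches 1, but the spread between cultures was not measured.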
